A study of Caenorhabditis elegans with 23 samples.

Results

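F07B7.1 and F07B7.2 are a pair of protein-coding genes on chromosome V of C. elegans that the annotation lists at 2 places, and their transcripts were followed through 19 RNA-seq libraries of young adult hermaphrodites. The genes were taken as 12 of the 100257 windows of 1 kb in the deposited table, 6 in a row for each copy, of which the fourth is V 8829001 to 8830000 in the first copy and V 8871001 to 8872000 in the second. The members were chosen by their RPKM levels, which were higher in libraries with the hrde-1(tm1200) mutation than in never-mutated ones, so that contrast is only described, and no value of it, its count of called windows included, is support for anything. All 12 windows passed the filter of a mean of at least 1 RPKM (read count scaled to window length and library size) over the 19 libraries.

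Nuclear RNA interference in the worm germline silences genes across generations. The Argonaute HRDE-1 acts in germ cell nuclei with bound small RNAs, where the pathway represses transcription of matching loci and brings about repressive chromatin there. SET-32 is a SET-domain protein of this pathway, and MET-2 and SET-25 are histone methyltransferases of H3 lysine 9. A repaired hrde-1 gene in worms descended from hrde-1 mutants lets the start of silencing be watched at loci that had lost it.

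Each library is 1 genotype at 1 generation. Of the 5 libraries in which hrde-1 had never been mutated, the 2 with wild-type set-32 were the N2 wild type and the met-2(n4256) set-25(n5021) double mutant, written met-2 set-25 from here on, and the 3 with mutated set-32 were set-32(ok1457), set-32(red11) and set-32(ok1457) met-2 set-25. Of the 5 libraries with hrde-1(tm1200), the 2 with wild-type set-32 were the single mutant and the triple mutant that also lacks met-2 and set-25. The other 3 were set-32(ok1457), set-32(red11) and set-32(red11) met-2 set-25, each with hrde-1(tm1200). In 9 libraries the mutation had been repaired, written hrde-1(+R). The 4 repaired libraries with wild-type set-32 were generations F4 and F5, and F3 and F5 with met-2 set-25. The 5 repaired set-32 mutants were set-32(ok1457) at F5 and F8, set-32(red11) at F4 and F5, and set-32(red11) met-2 set-25 at F5. The set-32(+) and set-32 mutant groups thus hold strains of differing background. Repaired libraries of the same genotype are called 1 line here, whatever their generation. No label says whether they descend from each other.

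The libraries held 458687 to 1152743 reads in the RPKM denominator, so 1 read in a window was worth 0.867 to 2.18 RPKM. A window of hrde-1, taken up with earlier results known like those of the other mutated genes, stood at 58.3 to 87.6 RPKM in the 5 hrde-1(tm1200) libraries and at 136 to 330 RPKM in the other 14. Windows of set-25 and met-2 read at most 4.56 RPKM in the 7 met-2 set-25 libraries and at least 15.8 RPKM in the other 12. The set-32 window read 0.88 to 6.94 RPKM in the 11 libraries with a set-32 allele and 8.28 to 16.4 RPKM in the other 8. The 5 germline markers (pgl-1, glh-1, glp-1, htp-3 and him-3) were above 0 in every library, and their summed level was 292 to 468 RPKM in never-mutated libraries, 325 to 450 in hrde-1(tm1200), 331 to 451 in repaired set-32(+) and 400 to 506 in repaired set-32 mutants. The summed level of 4 body wall muscle markers was 240 to 797, 261 to 608, 163 to 398 and 140 to 577 RPKM in the same order, and their part in the results was not tested.

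The copies have the same gene structure. In each, F07B7.2 comes first, with 4 exons that span 1745 bp and hold 951 exonic bp, and F07B7.1 follows on the same strand with 4 exons, a span of 1259 bp and 924 exonic bp. The annotation is that of assembly WBcel235, placed on the table's windows by window number, and it gives the copies different gene identifiers. They are WBGene00021107 (F07B7.2) and WBGene00021106 (F07B7.1) at the first place and WBGene00017186 and WBGene00017185 at the second. The offset between the copies is 42094 bp, or 42 windows and 94 bp. The first 2 windows of each set hold no annotated gene, the next 2 hold F07B7.2 and the last 2 hold F07B7.1. Most exonic bases of F07B7.2 lie in the window at V 8829001 to 8830000, with 743 bp, and most of F07B7.1 in the window at V 8830001 to 8831000, with 706 bp. The authors marked all 12 windows yes in a column headed GRTS, as they did 191 windows of the table, and the windows at the start of F07B7.2 in both copies also in a column headed GRH. The sources used here do not say how these marks were set.

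The deposited values do not tell the copies apart. Values around the first copy were paired with those 42 kb further on. Of the pairs with a positive value in either window, 43.7% were equal to within rounding, against at most 7.6% at the other lags examined. In the 10 libraries with high levels, the total over the second copy differed from that over the first by -0.3% to 0.9%, with a median of 0.1%. Only 27.8% of the 169 positive member values were whole numbers of reads and 36.1% were 0.5 of a read more than a whole number, against 80.0% and 3.6% on all of chromosome V. Levels of the genes and of stretches are therefore given as sums over both copies. Values of single windows are those of 1 copy only. The sources used here do not say how reads matching both places were divided, so the level of a single copy is uncertain. Differences within the copies were small and fell at window edges. The window with the body of F07B7.2 was higher in the first copy in 12 libraries and equal in 6, and the window with the end of F07B7.1 was higher in the second copy in 11 and equal in 6.

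**Figure D1:**
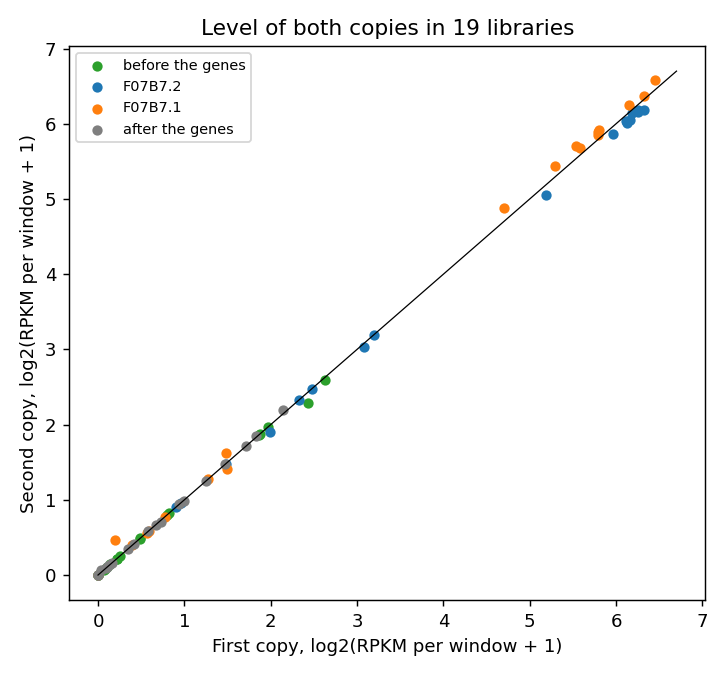
Level of the second copy (y axis) against the first (x axis), as log2(RPKM per 1 kb window + 1), for 4 stretches in each of the 19 libraries, with the line of equal values. The points lie on or close to the line at every level, with F07B7.2 slightly below it and F07B7.1 slightly above it in the libraries with high levels.

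F07B7.2 was low in the libraries in which hrde-1 had never been mutated, though less so in N2. Its level, summed over both copies, was 16.3 RPKM per window in N2, 1.88 in met-2 set-25, 3.58 in set-32(ok1457), 0 in set-32(red11) and 1.73 in set-32(ok1457) met-2 set-25. N2 stood above the other 4, on 23 reads, with an exact 95% Poisson interval of 10.3 to 24.4 RPKM that covers counting error only. In a bulk sample, fewer cells that express a gene and less RNA per cell cannot be told apart, here and in every result that follows.

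In the hrde-1(tm1200) libraries, which were used to choose the windows, F07B7.2 stood at 118.6 RPKM per window in hrde-1(tm1200), 146 with met-2 set-25, 67.6 with set-32(ok1457), 151 with set-32(red11) and 144 with set-32(red11) met-2 set-25. F07B7.1 stood at 80.4, 114, 53.4, 182 and 161 RPKM in the same libraries. The hrde-1(tm1200) and never-mutated libraries did not overlap for either gene, which the choice of windows made likely. How many of all windows also lack overlap was not counted. Of the 12 windows, 10 were called higher in hrde-1(tm1200), against 0.378% of all windows tested, and nothing is read from this count because the contrast chose the windows. The library with set-32(ok1457) was the lowest of the 5 for both genes and the shallowest of the 19. Its F07B7.2 interval of 51.8 to 86.6 RPKM lay below those of the other 4, whose lowest bound was 99.9 RPKM.

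After repair of hrde-1 with wild-type set-32, both genes were low. F07B7.2 stood at 8.08 RPKM per window at F4, 9.11 at F5, 14.6 in met-2 set-25 at F3 and 5.70 in met-2 set-25 at F5. F07B7.1 stood at 1.01, 3.48, 3.87 and 0.53 RPKM in the same libraries. All were below every hrde-1(tm1200) library. For F07B7.2 they lay under the N2 level of 16.3 RPKM and above the other 4 never-mutated libraries, which read 0 to 3.58. For F07B7.1, 2 of them lay above the highest never-mutated value of 2.84 RPKM. Against never-mutated set-32(+) libraries, the mean of both copies differed by a log2 of 0.22 ± 0.49 (SE; 95% interval -0.78 to 1.22, n = 4 and 2). None of the 12 windows was called, in a comparison that called 0% of all windows and gave 2463 at an unadjusted p under 0.05. The difference depended on single libraries. It was -0.58 without the met-2 set-25 libraries, -0.63 without the never-mutated met-2 set-25 library and 1.07 without N2. The never-mutated libraries also took part in the choice of the windows. This comparison is therefore a description with no p, and nothing is read from its count of called windows.

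After repair with mutated set-32, both genes were high. F07B7.2 stood at 147 RPKM per window in set-32(ok1457) at F5, 141 at F8, 133 in set-32(red11) at F4, 136 at F5 and 133 in set-32(red11) met-2 set-25 at F5. F07B7.1 stood at 96.8, 111, 113, 145 and 96.5 RPKM in the same libraries. None of these overlapped the repaired set-32(+) libraries, and they lay within the range of the hrde-1(tm1200) libraries. The share of all windows that also lack overlap between the repaired groups was not counted.

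**Figure D2:**
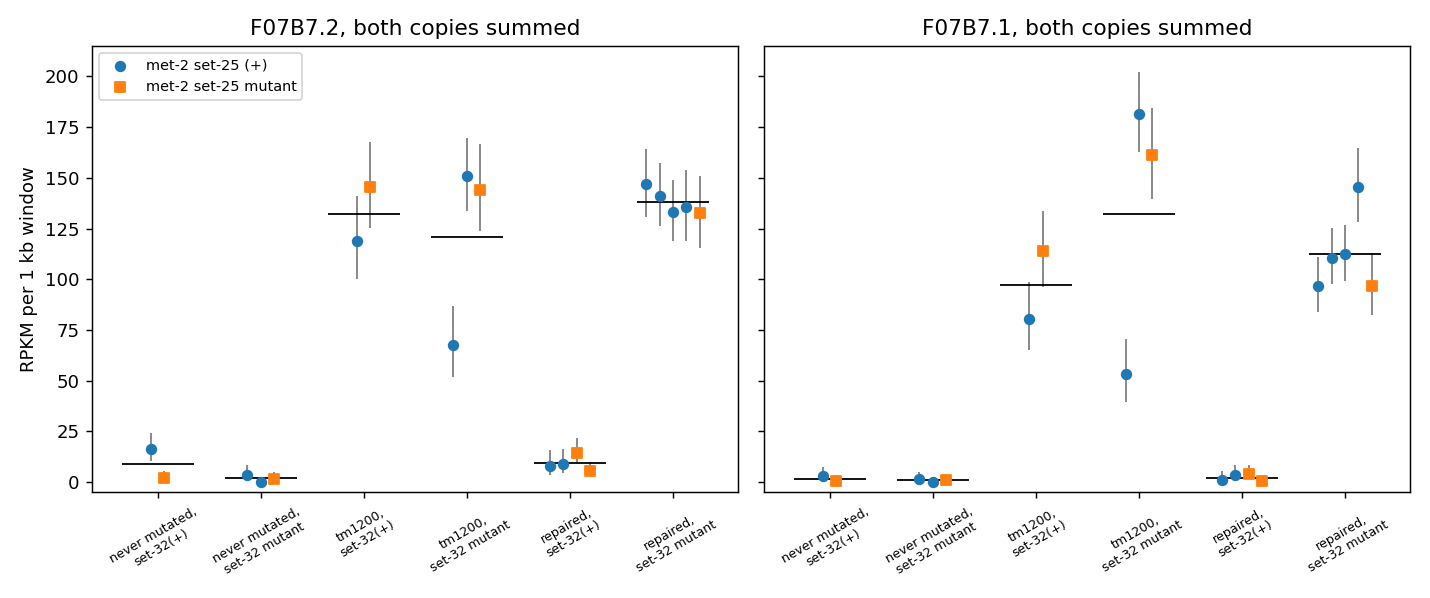
RPKM per 1 kb window, summed over both copies, for F07B7.2 (left) and F07B7.1 (right) in each of the 19 libraries by group, with exact 95% Poisson intervals for counting error and a line at the group mean. The 5 repaired set-32 mutants sit between 133 and 147 RPKM for F07B7.2 and the 4 repaired set-32(+) libraries between 5.70 and 14.6.

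The test of set-32 after repair did not use the libraries that chose the windows. Its result was known when the genes were chosen, and the filter averaged every library, so the test supports nothing further. The mean of both copies was higher in repaired set-32 mutants by a log2 of 3.90 ± 0.32 (SE; limma adjusted p = 7.54e-07, n = 5 and 4 libraries, met-2 set-25 as an additive term). These libraries come from 3 and 2 lines, and with 1 value per line, the mean over its generations, the difference was 3.89 ± 0.32 (limma adjusted p = 1.26e-05) and 8 windows were called. The 8 windows over the genes were called higher and the 4 windows before them were not, against 0.0774% of all windows called in the comparison. The 8 are among the 32 windows that make up this share. Like windows of the copies share reads, so they are not 8 separate results. The 4 windows before the genes read at most 1.78 RPKM in any repaired library. The median log2 difference was 3.44 over the 12 windows and 0.031 over all 41323 windows tested. The windows over F07B7.1 had larger differences (4.21 to 5.24) than those over F07B7.2 (3.13 to 3.81), on the log2 scale of RPKM + 1. This difference between the genes was not tested. With no filter on low windows, 4 of the 12 were called.

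Set against the never-mutated set-32 mutants, the repaired set-32 mutants had a log2 level higher by 4.92 ± 0.41 (SE, n = 5 and 3). The never-mutated libraries were the low side of the contrast that chose the windows, so this value is a description and no p is given for it. The same 8 windows over the genes were called, where 0.128% of all windows were called higher, and nothing is read from this count. For the same reason the difference of this change between set-32 mutants and set-32(+) worms, a log2 of 4.70 ± 0.64 (SE), is a description. In that interaction 6 of the 12 windows were called, where 0.0290% of all windows were, and the windows with the start of F07B7.2 in both copies were not, with log2 terms of 3.45 and 3.44.

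Before any repair, the set-32 comparison used the libraries that chose the windows, so it is a description with no p. Over the never-mutated and hrde-1(tm1200) libraries the log2 difference was -0.39 ± 0.44 (SE; 95% interval -1.29 to 0.51). Of the 12 windows, 0 were called, as were 0% of all windows, with 1468 at an unadjusted p under 0.05, and nothing is read from this count. The sign turned without the N2 library, to 0.13.

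After repair, loss of MET-2 and SET-25 made no difference that passed the test. The log2 difference with met-2 set-25 was -0.04 ± 0.33 (SE; 95% interval -0.74 to 0.66; limma adjusted p = 0.993) after repair. Before repair it was -0.08 ± 0.44 (SE; 95% interval -0.98 to 0.82), in the libraries that chose the windows, so that value is a description with no p. No member window was called in either comparison, where 0.0266% and 0.0702% of all windows were called, and 2542 and 2405 had an unadjusted p under 0.05. Nothing is read from the count before repair. Both small differences changed sign when single libraries were left out.

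**Figure D3:**
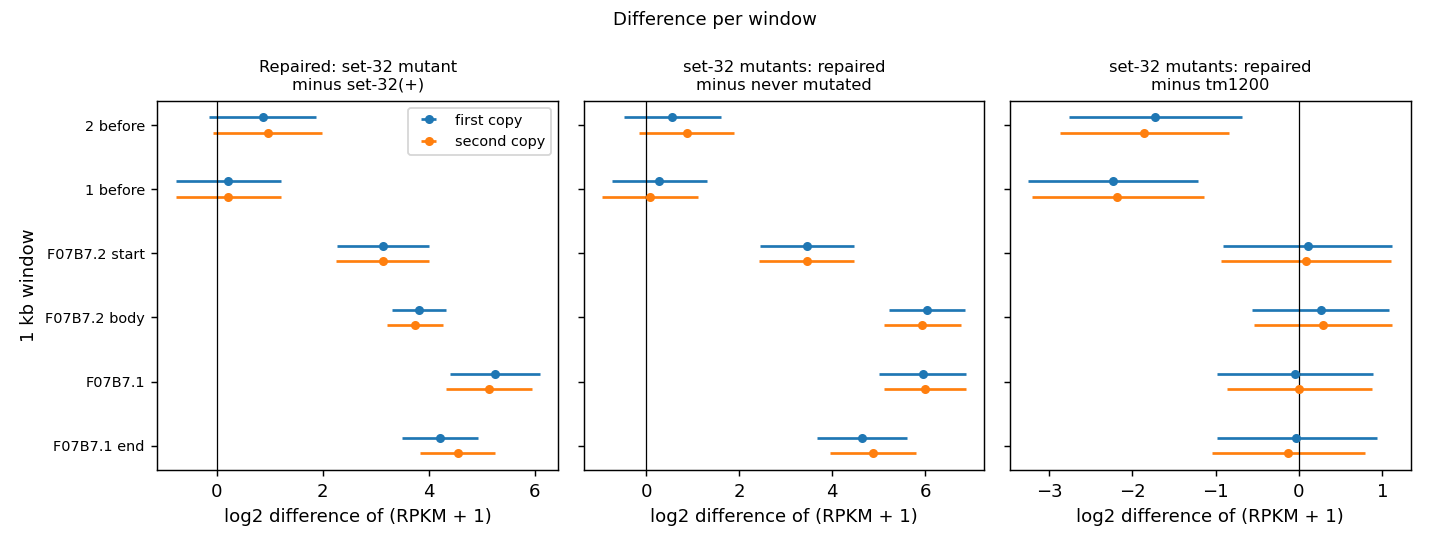
Log2 difference of RPKM + 1 (x axis) with its 95% interval from limma for each of the 6 windows of either copy (y axis), in 3 comparisons. The 8 gene windows lie between 3.13 and 5.24 after repair with mutated set-32, and near 0 against the hrde-1(tm1200) libraries, while the windows before the genes lie between -2.23 and -1.73 in the latter.

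Among set-32 mutants, repaired and hrde-1(tm1200) libraries overlapped over the genes. They did not overlap in front of them, where most windows were members chosen for their hrde-1(tm1200) levels, so nothing is read from that. The comparison uses hrde-1(tm1200) libraries that chose the windows, so it is a description with no p. Over the genes, the log2 difference of repaired minus hrde-1(tm1200) set-32 mutants was -0.13 to 0.29 by window, and for the mean of both copies it was 0.05 ± 0.41 (SE; 95% interval -0.80 to 0.89, n = 5 and 3). It turned to -0.44 without the library set-32(ok1457) hrde-1(tm1200). As a share of the mean of the 3 hrde-1(tm1200) set-32 mutants, the repaired set-32 mutants held 114% ± 5.06 (SD, n = 5) for F07B7.2 and 85.2% ± 15.1 for F07B7.1.

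In the 3 windows in front of F07B7.2, the last 2 of which are members, the share was 12.4% ± 6.43 (SD, n = 5). The level there, summed over both copies, was 5.36, 10.2 and 8.26 RPKM per window in hrde-1(tm1200) with set-32(ok1457), set-32(red11) and set-32(red11) met-2 set-25. In the 5 repaired set-32 mutants it was 1.53, 0.81, 0.80, 0.32 and 1.47 RPKM, in the order given above. The groups did not overlap, and the values rest on 7.4 to 28.3 reads in the former and 0.8 to 4.7 in the latter. How many of all windows also lack overlap between these groups was not counted, and nothing is read from it here.

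The member windows in front of the genes differed by log2 values of -1.73, -2.23, -1.86 and -2.18. They had been chosen for their hrde-1(tm1200) levels and passed the filter only through those libraries, so a lower level in other libraries was built into the choice. Of the 12 windows, 0 were called by limma where 0.104% of all windows were, with 2232 at an unadjusted p under 0.05. The window just before the chosen range of the first copy, V 8825001 to 8826000, stood at 2.18 ± 1.28 RPKM (SD, n = 5) in hrde-1(tm1200), and the one just after it, V 8832001 to 8833000, at 2.64 ± 1.82. The first member window read 2.68 to 7.48 RPKM in the same 5 libraries and the last 11.99 to 71.67.

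Downstream of the genes, in 15 windows per copy, the level over both copies was 0.99 to 7.01 RPKM per window in hrde-1(tm1200) libraries and 1.18 to 5.15 in repaired set-32 mutants, against at most 0.673 in every repaired set-32(+) or never-mutated library. The value of 0.99 RPKM, in set-32(ok1457) hrde-1(tm1200), rests on 6.8 reads. How many other stretches also lack overlap between these groups was not counted, and nothing is read from it. Of these 30 windows, 18 carry the authors' GRTS mark. The share of the hrde-1(tm1200) set-32 mutant mean was 63.8% ± 45.7 (SD, n = 5) in repaired set-32 mutants, and set-32(red11) at F5 was the highest of the 5. Of the 30 windows, 22 fell under the filter and were not tested.

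**Figure D4:**
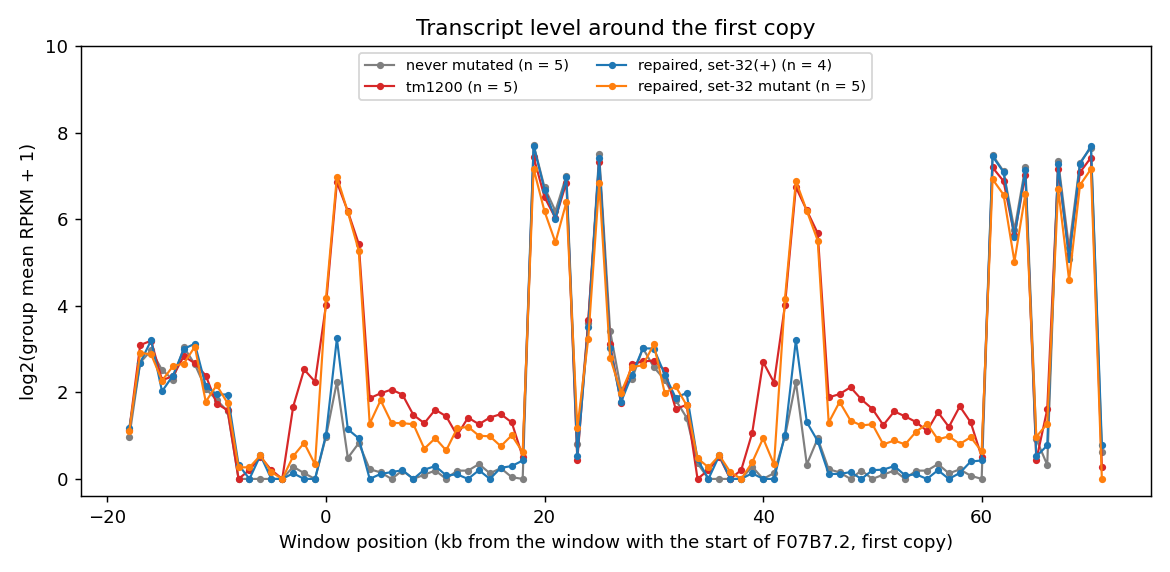
Log2(group mean RPKM + 1) per 1 kb window (y axis) against distance in kb from the window with the start of F07B7.2 in the first copy (x axis), for 4 groups of libraries. The hrde-1(tm1200) and repaired set-32 mutant lines coincide over the genes of both copies, part in the windows in front of them, and stay above the other 2 groups downstream as far as the histone genes.

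The neighbouring histone and rpm-1 windows did not follow this pattern. Within 25 kb the annotation lists 40 other genes, among them 14 histone genes and rpm-1. The histone windows read 94.3 to 320.5 RPKM per window over both copies in repaired set-32 mutants and 150 to 323 in repaired set-32(+) libraries. They read 179 to 282 in hrde-1(tm1200) and 205 to 289 in never-mutated libraries, and the groups overlapped. Repaired set-32(ok1457) at F8 (94.3) and set-32(red11) at F4 (104) and F5 (125) lay below every other library, which was not tested. The other repaired set-32 mutants read 206 and 320.5. Repaired minus never-mutated set-32 mutants gave a histone median log2 of -0.70. In the set-32 comparison after repair, 14 histone windows had a median log2 difference of -0.38 and none was called. None of the 46 windows tested around the members was called in any of the 9 comparisons. The 46 include the 8 downstream windows that passed the filter. The shares of all windows called, as counted above, were 0% to 0.378%, so nothing is read from these counts. The rpm-1 windows in front of the duplicated genes read 5.10 to 13.4 RPKM per window over all 19 libraries. F07B7.14, the gene annotated before F07B7.2, read at most 0.77 RPKM over both copies in hrde-1(tm1200) libraries and was listed at 0 in all others. F07B7.8, the next gene after F07B7.1, was listed at 0 in never-mutated libraries and read at most 3.16 RPKM in hrde-1(tm1200), 2.74 in repaired set-32(+) libraries and 3.50 in repaired set-32 mutants. No window of these genes passed the filter.

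Within the pair, the ratio of F07B7.2 to F07B7.1 was compared per exonic kilobase. In the 10 libraries with high levels the ratio was 0.808 to 1.48, with a median of 1.23. In the 8 other libraries with reads it was 1.75 to 10.5, with a median of 3.28, and these rest on few reads, as few as 1 for F07B7.1. The 2 ranges did not overlap. These sets were formed by the level of the same genes and include the libraries that chose the windows. How many other gene pairs also lack overlap was not counted, and nothing is read from it. Within 1 line, F07B7.1 read 113 RPKM per window (95% interval 99.1 to 127) in set-32(red11) at F4 and 145 (128 to 165) at F5, while F07B7.2 read 133 and 136. In set-32(ok1457) the intervals of F5 and F8 overlapped for both genes. Each generation has 1 library, so these differences have no replicate check.

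Of 16 genes of nuclear RNAi, small RNA amplification and H3 lysine 9 methylation, 15 could be matched and tested. None had a window called in the set-32 comparison after repair, where their median log2 difference was 0.06. The calls elsewhere were at mutated loci, namely hrde-1 lower in hrde-1(tm1200) and higher in repaired set-32 mutants than in unrepaired ones, and set-25 and met-2 lower in met-2 set-25. Of 9 other loci known as HRDE-1 targets, a list drawn up with these data in view and so not independent evidence, 6 had a window called higher in repaired set-32 mutants. They were C38D9.2, F15D4.5, eri-6, sosi-1, ife-5 and scrm-4, of which eri-6 and sosi-1 overlap and share their called windows. Counted once each, 11 of the 26 windows of the list were called higher, or 42.3%, against 0.0774% of all windows. The window of scrm-4, a scramblase family gene, differed by a log2 of 4.34 (limma adjusted p = 2.68e-06). For bath-45 the largest window difference was 1.11 (limma adjusted p = 0.788).

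The regions most like the pair were ranked by Pearson's r of log2(RPKM + 1) with the mean of both copies over the 19 libraries, among 41265 windows outside the surrounding stretch of V. The r values are a description, since libraries with high and low levels form separate sets and share their depth. The median r was -0.005. The highest, 0.960, belonged to a window at V 20299001 to 20300000, where the annotation could not be placed. It was followed by windows at F15D4.6 (0.938), at eri-6 and sosi-1 (0.923), at WBGene00018648 (0.911) and at gpx-8 (0.910). The remaining 5 of the 10 regions had r between 0.879 and 0.908, and included scrm-4, C40A11.7 with C40A11.8, and F41G4.13. At F15D4.6 the level was 18.0 ± 5.46 RPKM in hrde-1(tm1200) (SD, n = 5), 12.7 ± 1.62 in repaired set-32 mutants (n = 5) and 0.228 ± 0.455 in repaired set-32(+) libraries (n = 4).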

How the data were processed

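Total RNA was sequenced after RNase H removal of ribosomal RNA, per the labels' protocols. The authors deposited RPKM values per 1 kb window, with yes or no marks. The submitters' processing notes name Bowtie 0.12.7. The sources used here give no build, strand setting or rule for reads with several matches. Of its columns, 24 that belong to other samples were not used, and 4 F20 libraries were not analysed here. Reads were recovered from the value of 1 read (76.9% to 84.9% of positive values whole within 0.0051 RPKM), so no count test was run. Coordinates are the table's, from 1. WBcel235 exons matched window numbers within 100 bp in 188 of 197 segments. The 41323 windows that averaged 1 RPKM or more were tested with limma 3.58.1 (R 4.3.3, eBayes with trend) on log2(RPKM + 1), with calls at an adjusted p (Benjamini-Hochberg) below 0.05 and a log2 change of 1 or more either way. The 3 mean rows of the copies were added to each fit. Groups share a set-32 and hrde-1 state; other mutations are additive terms. Strains, and in repaired groups also generations of 1 line, serve as replicates, and no label says they are separate cultures, so the p-values reflect only how far these libraries vary. Fits were tested on simulated data. Named were the 12 windows, annotated neighbours within 25 kb, the 10 most similar regions and listed genes; members and lists were chosen with earlier results of these data known. Alternatives were another pseudocount, no filter, median-ratio scaling, no trend, joined copies, and left-out libraries; 1 value per line and a strain block were added after seeing the data.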

Additional observations from a re-analysis of the deposited data

Results flagged for a closer look

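F07B7.2 in the N2 library, at 16.28 RPKM per window over both copies, lay far from the other 4 never-mutated libraries, with a gap to the nearest of 0.78 of the whole range. Downstream of the genes, the repaired set-32(red11) library at F5, at 5.147 RPKM per window, lay far from the other 4 repaired set-32 mutants, with a gap of 0.80 of the range. These were 2 of 16 sets of libraries examined, and chance gives about 1 in 20. The change of both copies with repair differed between set-32 mutants and set-32(+) worms by a log2 of 4.70 in a limma interaction term. The never-mutated libraries in this term helped to choose the windows, so the value is a description.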

How the results depend on the processing

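No paired analysis was possible because the labels carry no replicate numbers, but they do match strain backgrounds. With strain background as a block, or with 1 value per line, both chosen after seeing the data, no call changed. Of 656 values under alternatives, 626 kept direction and side of the threshold or stayed within 1.5 times a count. Without the filter, 2 windows were called in the hrde-1 contrast (mean of both copies 4.54, no longer past the threshold), 4 in the set-32 comparison after repair and 1 in repaired against hrde-1(tm1200) set-32 mutants, which had 3 without the trend. With the copies joined into 6 windows, the calls were 6 (hrde-1), 4 (set-32 after repair), 4 (repaired against never-mutated set-32 mutants), 1 (repaired against hrde-1(tm1200)) and 3 (interaction), by construction of fewer windows. Without the met-2 set-25 libraries, 5 were called in the hrde-1 contrast, and repaired minus never-mutated set-32(+) became -0.58. Median-ratio scaling gave -0.05 for repaired minus hrde-1(tm1200) set-32 mutants. The causes were not tested. Leaving out 1 library in turn moved the log2 of both copies from 3.78 to 4.05 (set-32 after repair, 8 windows called each time), 4.65 to 5.15 (repaired against never-mutated set-32 mutants, 8), 3.88 to 5.58 (interaction, 5 to 8), 4.32 to 4.91 (hrde-1, 9 to 10), -0.29 to 0.17 and -0.39 to 0.32 (met-2 set-25 after and before repair), -0.64 to 0.13 (set-32 before repair), -0.63 to 1.07 (repair with set-32(+)) and -0.44 to 0.31 (repaired against hrde-1(tm1200)), with no window called in the last 5. Where this left 1 library in a group, it was assumed to vary like the others. Windows of a few RPKM rest on single reads.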
